A study of Mus musculus with 6 samples.

Results

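Ephrins and Eph receptors were followed in adult mouse aortic endothelial cells (EC) that overexpressed Meis1. The set holds 10 genes, chosen by name as arterial and venous members of this family: the ephrin-B genes Efnb1, Efnb2 and Efnb3, the EphB receptor genes Ephb1, Ephb2 and Ephb4, the ephrin-A genes Efna1 and Efna5, and the EphA receptor genes Epha2 and Epha4. All 10 were among the 54429 genes of the count table, of which 27948 had a count, and 8 of them passed the filter on low counts. Ephb1 and Ephb2 did not.

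RNA-seq covered 6 libraries in 2 conditions, 3 with a Meis1 vector (Meis1-OE) and 3 with a control vector that carries YFP alone (YFP-CTRL). All came from wild-type C57BL/6 primary aortic EC, a commercial stock of cells from adult animals. Lentivirus was left on the cells for 48 h. Cells positive for YFP, CD31 and VEC (VE-cadherin) were sorted at 72 h, plated again and grown to confluency before RNA was taken. The label "control vector" therefore stands for cells that went through the same transduction and sort, and the RNA reports on cultured EC after expansion, not on the vessel wall. Libraries are named by the letter their column carries, and nothing states that a letter marks a shared batch. Where 3 values are given for a condition, they follow the letters A to C.

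Ephrins are ligands held in the membrane and Eph receptors are the tyrosine kinases they bind, so signalling needs contact between cells. It runs forward into the cell with the receptor and in reverse into the cell with the ephrin. Ephrin-A ligands are anchored by a lipid and mostly bind EphA receptors, while ephrin-B ligands cross the membrane and mostly bind EphB receptors. In the vasculature Efnb2 is the classical marker of arterial EC and Ephb4, the receptor of ephrin-B2, that of venous EC.

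Meis1 was counted 135325, 157828 and 149221 times in Meis1-OE EC, as against 39, 58 and 85 times in YFP-CTRL EC, so the labels fit the vector. All 10 endothelial markers that were checked had counts in every library, and their summed level ran from 3392 to 4324 CPM (counts scaled to library size, with TMM normalization) in Meis1-OE EC and from 4448 to 6072 CPM in YFP-CTRL EC. Of these markers 2 were called higher (Vwf and Cldn5) and 1 was called lower (Tek) in Meis1-OE EC. Cdh5, the gene of VEC, and Kdr were not called (adjusted p = 0.0535 and 0.0504 from edgeR). Their means were lower, at 1316 CPM in Meis1-OE EC against 2143 in YFP-CTRL EC for Cdh5, and 319 against 751 for Kdr. A list of 9 mural and fibroblast genes summed to between 4.03 and 6.06 CPM in Meis1-OE EC and to 1.68, 5.10 and 23.2 CPM in YFP-CTRL EC, of which Acta2 made up 19.9 CPM in library C. Of 7 macrophage genes 3 were at 0 in all libraries and the list summed to at most 1.48 CPM. Of 4 lymphatic genes, Pdpn was at 0 in all libraries and Prox1 had 2 counts in Meis1-OE library A and 0 elsewhere, while Lyve1, lower in Meis1-OE EC, and Flt4 made up nearly the whole sum, which ran from 178 to 187 CPM in Meis1-OE EC and from 280 to 558 CPM in YFP-CTRL EC. The control libraries also differed in a proliferation score, the mean log2(CPM + 1) of 15 genes expressed in dividing cells. It was 4.50, 5.39 and 6.57 in YFP-CTRL EC, as against 6.59, 6.58 and 6.63 in Meis1-OE EC. YFP-CTRL library C thus lay next to the Meis1-OE libraries on this score, and the fold changes on which it bears are given with and without it. The controls left without library C, at 4.50 and 5.39, lie below every Meis1-OE library. Fits without library C therefore part the score from the condition less well than the fit with all libraries. The score hardly differed among the Meis1-OE libraries. Where it serves as a covariate, its slope therefore rests mostly on the control libraries, and the fit cannot fully part the score from the condition. In bulk RNA, fewer cells that express a gene and less RNA per cell cannot be told apart.

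The 5′ flanks of the members on which the results turn are shown first, because the introduced factor binds DNA. TGACAG, the core recognised by MEIS proteins, was searched on both strands in the 250 bases before RefSeq gene starts (build GRCm38.p6, the same build as the mm10 named in the submitters' processing notes). Of the 10 members 9 had a window, Efnb3 being the exception, and that of Ephb2 lay inside the outermost start of its gene model. TGACAG was found in the window of Efnb2 and in those of none of the 8 other members. The same letters were in 15.9% of all 32851 windows. In Efnb2 a match began 18 bases before the start and another, on the other strand, 164 bases before it. In the following sequences, written 5′ to 3′ on the strand of the gene and ending where the RefSeq gene model begins, capitals mark TGACAG or its reverse complement. Efnb2 and Ephb4 are the arterial ligand and its venous receptor, and Epha4 and Efna5 are the members that passed the test below.
Efnb2, chr8:8661243-8661492, minus strand: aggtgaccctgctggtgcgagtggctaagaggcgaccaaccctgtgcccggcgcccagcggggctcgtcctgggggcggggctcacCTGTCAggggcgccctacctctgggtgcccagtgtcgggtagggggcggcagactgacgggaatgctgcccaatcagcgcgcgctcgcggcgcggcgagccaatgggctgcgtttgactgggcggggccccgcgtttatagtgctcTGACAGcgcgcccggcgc
Ephb4, chr5:137349859-137350108, plus strand: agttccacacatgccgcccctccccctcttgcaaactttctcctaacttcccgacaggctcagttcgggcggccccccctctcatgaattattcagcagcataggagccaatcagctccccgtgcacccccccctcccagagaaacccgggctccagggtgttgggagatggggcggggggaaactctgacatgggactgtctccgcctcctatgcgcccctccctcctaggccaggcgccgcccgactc
Epha4, chr1:77515108-77515338, minus strand: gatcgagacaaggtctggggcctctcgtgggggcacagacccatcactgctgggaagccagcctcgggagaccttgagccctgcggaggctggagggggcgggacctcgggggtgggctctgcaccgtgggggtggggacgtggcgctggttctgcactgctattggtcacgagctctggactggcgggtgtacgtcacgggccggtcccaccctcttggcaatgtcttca
Efna5, chr17:62881318-62881567, minus strand: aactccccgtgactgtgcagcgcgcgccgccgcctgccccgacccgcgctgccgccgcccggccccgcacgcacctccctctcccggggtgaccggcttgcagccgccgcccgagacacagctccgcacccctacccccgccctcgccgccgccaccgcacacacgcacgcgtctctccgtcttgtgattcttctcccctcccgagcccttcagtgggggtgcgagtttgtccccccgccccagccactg
These are letters in a short window and not measured binding. The genes themselves lie at chr8:8617235-8661242 (Efnb2), chr5:137350109-137374522 (Ephb4), chr1:77367182-77515107 (Epha4) and chr17:62602957-62881317 (Efna5) in GRCm38.p6.

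Of the 8 members tested, 2 were lower in Meis1-OE EC and 0 were higher at an adjusted p under 0.05 in the quasi-likelihood test of edgeR, adjusted by Benjamini-Hochberg over all 16065 genes tested. The receptor gene Epha4 and the ligand gene Efna5 were the members that fell, to 40.2% and 42.8% of the control level. Across all genes tested, 6.87% were called in either direction, 4.14% higher and 2.73% lower. At an unadjusted p under 0.05, 4 members were lower and 0 higher, where 13.4% of all genes tested were lower and 12.8% higher. The median log2 fold change of the 8 was -0.43, against 0.01 over all genes tested. DESeq2, which called 12.3% of its genes, added Epha2 and called 3 members lower and 0 higher. Without YFP-CTRL library C, edgeR called 5 of the 8, 4 lower and 1 higher, where 31.7% of all genes were called.

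**Figure D1:**
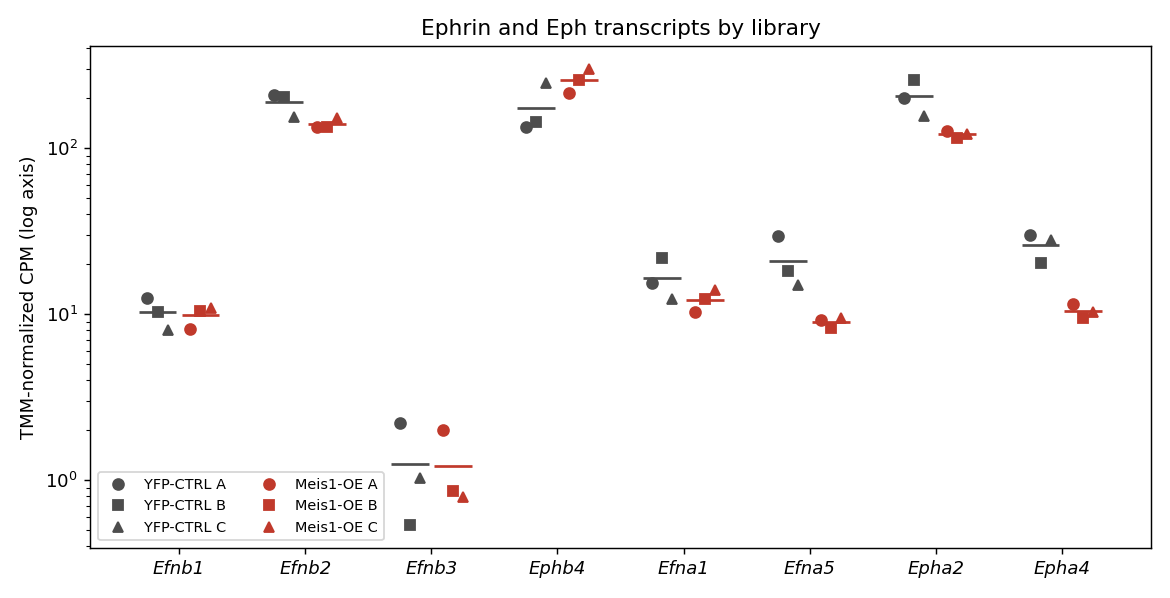
TMM-normalized CPM (log axis) of the 8 members that passed the filter, 1 point per library (letter by shape, condition by colour), with the mean of each condition as a bar. Epha4, Efna5, Epha2 and Efnb2 do not overlap between the conditions and lie lower in Meis1-OE EC, and for Efnb2 the gap is between 153 and 154 CPM.

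Among the ephrin-B ligands, Efnb2 was the most abundant. The level of Efnb2 was 134, 134 and 153 CPM in Meis1-OE EC, as against 210, 205 and 154 CPM in YFP-CTRL EC. All Meis1-OE values lay below all control values, but control library C was level with Meis1-OE library C. The means were 140 ± 10.8 and 190 ± 30.8 CPM (SD, n = 3 each), and the log2 fold change was -0.43 (standard error 0.15, 95% interval -0.77 to -0.09) with an adjusted p of 0.118 from edgeR. Efnb2 therefore did not pass over all genes. Without YFP-CTRL library C it did, at -0.57 (adjusted p = 0.00474). When the proliferation score was added as a covariate, Efnb2 was at -0.18 (adjusted p = 0.529, both from edgeR).

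Efnb1 encodes ephrin-B1, which shares the conserved cytoplasmic tail of the ephrin-B ligands. It was at 8.16, 10.5 and 10.9 CPM in the Meis1-OE libraries and at 12.5, 10.4 and 8.05 CPM in the YFP-CTRL libraries. The values of the conditions were interleaved, and the log2 fold change was -0.06 (95% interval -0.54 to 0.42, adjusted p = 0.883 from edgeR). Its sign turned on library totals, with the covariate and without Meis1-OE library A or YFP-CTRL library A.
Efnb3, best known from the nervous system, had 92, 39 and 37 counts in the Meis1-OE libraries and 75, 22 and 47 counts in the YFP-CTRL libraries. For Efnb3 the log2 fold change was -0.03 with a 95% interval from -1.38 to 1.32, and library A lay above libraries B and C in both conditions.

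Among the EphB receptors Ephb4 was the only member detected. Ephb1 had 0, 0 and 0 counts in Meis1-OE EC, as against 0, 1 and 1 in YFP-CTRL EC, and Ephb2 had 0, 1 and 2 counts, as against 0, 0 and 0. These lie within the floor of 3 counts, which corresponds to between 0.0648 and 0.0883 CPM per library. The level of Ephb4 was 215, 256 and 302 CPM in Meis1-OE EC, as against 134, 145 and 247 CPM in YFP-CTRL EC. Control library C overlapped the Meis1-OE range, and the other control libraries lay below all Meis1-OE libraries. The log2 fold change of Ephb4 was 0.56 (standard error 0.25, 95% interval -0.03 to 1.14, adjusted p = 0.212 from edgeR), the highest among the members and the only positive value. Without YFP-CTRL library C this value was 0.87 (adjusted p = 0.00628), and under the proliferation covariate 0.12 (adjusted p = 0.803, both from edgeR).

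The receptor and its ligand were also compared within each library, where the scaling of libraries has no part. The count of Ephb4 was 1.61, 1.91 and 1.97 times that of Efnb2 in Meis1-OE EC. In YFP-CTRL EC it was 0.640, 0.706 and 1.60 times that of Efnb2. Venous receptor transcripts thus outnumbered those of the arterial ligand in every Meis1-OE library and in YFP-CTRL library C, and the reverse held in YFP-CTRL libraries A and B. The mean log2 ratio of Efnb2 to Ephb4 was -0.87 ± 0.16 in Meis1-OE EC and 0.16 ± 0.73 in YFP-CTRL EC (SD, n = 3 per condition). The difference was -1.02, with an exact two-sided permutation p of 0.1, the smallest that 3 against 3 allows. That p needs every Meis1-OE ratio to lie below every control ratio. The nearest values were -0.684 in Meis1-OE library A and -0.680 in YFP-CTRL library C. These are ratios of reads and are not corrected for transcript length. Without YFP-CTRL library C the difference was -1.44. Leaving out YFP-CTRL library A instead gave -0.78. The proliferation covariate was not applied to the ratio. In the edgeR fit with that covariate, the log2 fold change was -0.18 for Efnb2 and 0.12 for Ephb4.

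**Figure D2:**
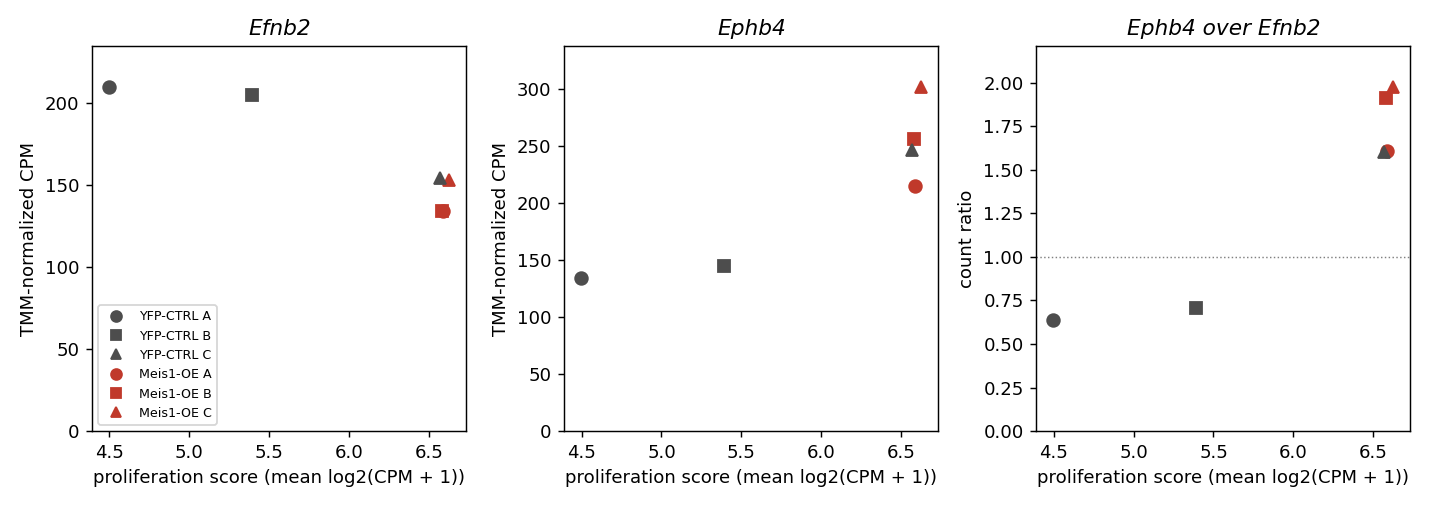
CPM of Efnb2 and of Ephb4 and the count ratio of Ephb4 to Efnb2 (vertical axes, from 0) against the proliferation score of each library (horizontal axis), 1 point per library. YFP-CTRL library C, at a score of 6.57, lies beside the Meis1-OE libraries in all 3 panels, with a ratio of 1.60 against 1.61 in Meis1-OE library A.

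Among the ephrin-A ligands Efna5 fell and Efna1 did not pass. Efna5, which encodes a ligand of EphA receptors including EphA4, was at 9.25, 8.26 and 9.48 CPM in Meis1-OE EC, as against 29.7, 18.4 and 15.1 CPM in YFP-CTRL EC. The Meis1-OE libraries were close together and all below the lowest control. For Efna5 the log2 fold change was -1.22 (standard error 0.25, 95% interval -1.82 to -0.63, adjusted p = 0.0351 from edgeR, 0.000203 from DESeq2). In edgeR the call was lost when any one of the Meis1-OE libraries, or YFP-CTRL library B, was left out (adjusted p of 0.10 to 0.176), and on library totals (0.0568). The fits that left out those libraries also called fewer genes over all than the fit with every library. For Efna5 the other settings were as follows. With YFP-CTRL library C left out it was at -1.42 (adjusted p = 0.0035 from edgeR). Under the proliferation covariate it was at -0.66 (adjusted p = 0.0748 from edgeR).

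Efna1 encodes ephrin-A1, a ligand of EphA2 known from endothelium exposed to inflammatory cytokines. It was at 10.3, 12.4 and 14.0 CPM in Meis1-OE EC, as against 15.3, 21.7 and 12.4 CPM in YFP-CTRL EC. Control library C fell within the Meis1-OE range. The log2 fold change was -0.43 (95% interval -0.97 to 0.10, adjusted p = 0.277 from edgeR), and without control library C it was -0.62 (adjusted p = 0.0542 from edgeR).

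Of the EphA receptors, Epha4 showed the clearest difference of the set. The level of Epha4 was 11.6, 9.54 and 10.4 CPM in Meis1-OE EC, as against 29.9, 20.5 and 27.9 CPM in YFP-CTRL EC. Here control library C lay with the other controls, away from the Meis1-OE libraries. The log2 fold change was -1.31 (standard error 0.18, 95% interval -1.73 to -0.90, adjusted p = 0.00969 from edgeR, 6.14e-09 from DESeq2). It was -1.27 without YFP-CTRL library C (adjusted p = 0.00352) and -1.28 under the proliferation covariate (adjusted p = 0.0255, both from edgeR). Epha4 missed the threshold when Meis1-OE library B was left out (log2 fold change -1.25, adjusted p = 0.0725 from edgeR) and when Meis1-OE library C was (-1.30, adjusted p = 0.0667 from edgeR). Over all genes, these fits called 115 higher and 16 lower (without B) and 126 higher and 18 lower (without C). With all libraries, 665 were higher and 438 lower.

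Epha2 encodes an EphA receptor that EC use in assembling vessels in response to ephrin-A1. It was at 127, 115 and 123 CPM in Meis1-OE EC, as against 202, 258 and 156 CPM in YFP-CTRL EC. The conditions did not overlap, with control library C nearest to the Meis1-OE libraries. The log2 fold change was -0.76 (standard error 0.18, 95% interval -1.18 to -0.33). Its adjusted p was 0.0535 from edgeR, which just missed the threshold of 0.05, and 0.00921 from DESeq2. Without YFP-CTRL library C the value was -0.93 (adjusted p = 0.00385), and with the covariate -0.52 (adjusted p = 0.230, both from edgeR).

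**Figure D3:**
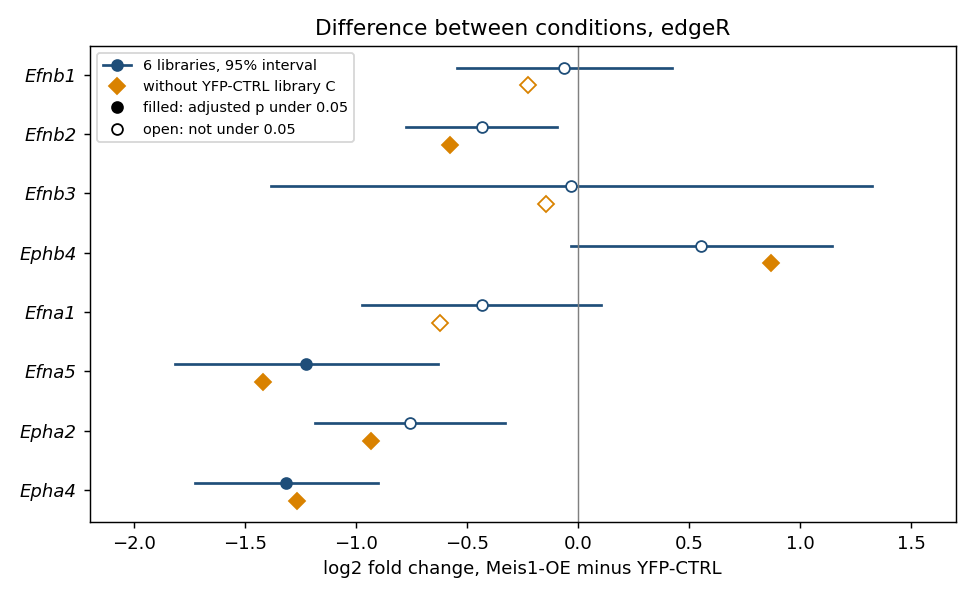
Log2 fold change of each tested member (horizontal axis, Meis1-OE minus YFP-CTRL) from edgeR, with its 95% interval for all 6 libraries (circles) and as a value without YFP-CTRL library C (diamonds); filled symbols have an adjusted p under 0.05. Efna5 and Epha4 are filled in the first fit, and Efnb2, Ephb4 and Epha2 as well in the second. The second fit keeps only controls with a proliferation score below that of every Meis1-OE library.

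Across the set, 4 of the 8 tested members (Epha4, Efna5, Epha2 and Efnb2) had all Meis1-OE values below all control values. Over all genes tested 15.9% were lower without overlap, and 33.1% did not overlap in either direction. For the other members that passed the filter, Ephb4, Efna1, Efnb1 and Efnb3, the conditions overlapped. For Efnb2, Ephb4, Efna1, Efna5 and Epha2, and for the low Efnb3, control library C was the control nearest to the Meis1-OE mean, and in the same library the mural list and the proliferation score were highest among the controls. The mural list entered no fit, and its part in these results was not tested. In the fit with the score as a covariate, the log2 fold change was smaller in size for the first 5 of these and larger for Efnb3 (0.60, adjusted p = 0.718 from edgeR). Epha4 alone among the members passed there. As the slope of the score rests mostly on the control libraries, this fit cannot fully part the score from the condition.

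Levels of different members were set side by side as CPM per kb of exon, with lengths from GENCODE vM1, an older annotation than the one behind the counts. In YFP-CTRL EC, Epha2 was at 43.9, Efnb2 at 39.6 and Ephb4 at 37.8 CPM per kb, with overlapping ranges of 33.4 to 55.2, 32.2 to 43.8 and 28.9 to 53.2. For Ephb4 the overlap came from library C. Ephb4 was at 28.9 and 31.2 CPM per kb in YFP-CTRL libraries A and B, below Efnb2 (43.8 and 42.8) and Epha2 (43.1 and 55.2), whereas in YFP-CTRL library C it was at 53.2, above Efnb2 (32.2) and Epha2 (33.4). Efna1 followed at 9.02, Efna5 at 5.22, Epha4 at 4.12, Efnb1 at 2.99 and Efnb3 at 0.396 CPM per kb, and the ranges of Efna1 and Efna5, of Efna5 and Epha4 and of Epha4 and Efnb1 overlapped. Without library C those of Efna1 and Efna5 no longer did.
In Meis1-OE EC Ephb4 stood above Efnb2 and Epha2 in every library, the order also seen in YFP-CTRL library C. Ephb4 was at 55.6 CPM per kb (46.4 to 65.0 over the libraries), Efnb2 at 29.3 (28.0 to 31.9) and Epha2 at 26.0 (24.6 to 27.2). Efna1 was at 6.68, Efnb1 at 2.86, Efna5 at 2.23, Epha4 at 1.66 and Efnb3 at 0.384 CPM per kb. Efnb1 thus stood above Efna5 and Epha4 in Meis1-OE EC and below them in YFP-CTRL EC, with ranges that overlapped those of Epha4 in YFP-CTRL EC, while its own mean per kb was 2.86 and 2.99.

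**Figure D4:**
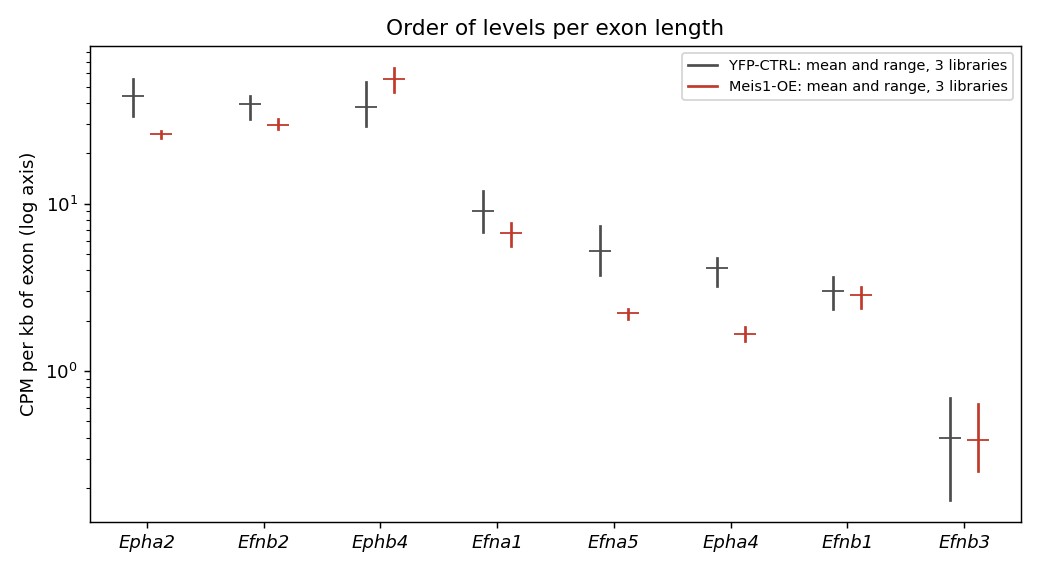
CPM per kb of exon (log axis) of the 8 detected members, ordered by the YFP-CTRL mean; the horizontal tick is the mean and the vertical line the range of the 3 libraries of a condition. Ephb4 has the highest mean in Meis1-OE EC, 55.6 CPM per kb, and its wide YFP-CTRL range runs from 28.9 in library A to 53.2 in library C, across the ranges of Efnb2 and Epha2.

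The rest of the family, 12 genes, was nearly silent. Only Efna2, Efna3 and Epha7 passed the filter, and Epha10 was at 0 in all libraries. Efna3, which encodes another ephrin-A ligand, had 42, 47 and 55 counts in Meis1-OE EC and 14, 21 and 21 counts in YFP-CTRL EC. It was higher in all 3 Meis1-OE libraries, with a log2 fold change of 1.17 (standard error 0.27, adjusted p = 0.0471 from edgeR), opposite in sign to Efna5. The call was lost without any single library other than YFP-CTRL library C (adjusted p of 0.0830 to 0.219), without a filter (log2 fold change 1.17, adjusted p = 0.0742) and with the covariate (1.10, adjusted p = 0.177, all from edgeR), while the log2 fold change stayed between 1.07 and 1.26 when single libraries were left out.
Ephb3, a receptor of ephrin-B ligands, had 25, 8 and 15 counts in Meis1-OE EC and 0 in each YFP-CTRL library. It was singled out after its values were seen. Its mean of 0.349 CPM in Meis1-OE EC was at least 4.5-fold higher than the floor of 3 counts per library in YFP-CTRL EC, a mean of 0.0760 CPM. Ephb3 did not pass the filter on low counts. Without that filter its adjusted p was 0.0168 from edgeR, and it was 0.000561 from DESeq2. The EphB family member Ephb6, whose kinase is inactive, had 6, 7 and 4 counts against 1, 1 and 2 counts. It did not pass the filter either, and without the filter its adjusted p was 0.238 from edgeR.

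Genes that act beside or downstream of ephrins and Eph receptors were read from a list of 49, which holds adaptors, kinases and other effectors inside the cell, partners of ephrin-B tails, and proteases that cut ephrins or Eph receptors. Of the 45 tested, 3 were higher and 1 was lower in Meis1-OE EC (8.89%, against 6.87% of all genes), and 16 did not overlap between the conditions (35.6%, against 33.1%). The median log2 fold change of this list was -0.02. The share of the pathway genes was thus near that of all genes.
Rgs3, whose PDZ form binds the tail of ephrin-B ligands in reverse signalling, was at 70.1, 85.5 and 91.2 CPM in Meis1-OE EC, as against 30.7, 36.9 and 54.1 CPM in YFP-CTRL EC. Every Meis1-OE library was above every control, with a log2 fold change of 1.02 (standard error 0.22, adjusted p = 0.0414 from edgeR). Vav3, an exchange factor recruited by Eph receptors, was at 21.9, 24.8 and 27.4 CPM against 11.8, 14.9 and 17.4 CPM, a log2 fold change of 0.75 (adjusted p = 0.0488 from edgeR). Pik3r1, the regulatory subunit of phosphoinositide 3-kinase, was at 72.4, 93.7 and 93.5 CPM against 51.0, 61.5 and 57.8 CPM, a log2 fold change of 0.61 (adjusted p = 0.0496 from edgeR).
The gene that fell was Cblb, a ubiquitin ligase of the Cbl family that acts on receptor tyrosine kinases. Cblb was at 51.0, 50.0 and 48.5 CPM in Meis1-OE EC, as against 94.9, 94.8 and 62.1 CPM in YFP-CTRL EC, a log2 fold change of -0.75 (adjusted p = 0.0490 from edgeR). Control library C lay between the other controls and the Meis1-OE libraries. The calls of Rgs3, Vav3, Pik3r1 and Cblb were lost without any single library other than YFP-CTRL library C (adjusted p of 0.0539 to 0.239), in fits that called fewer of all genes. Under the proliferation covariate none of these calls held, with log2 fold changes of 0.61 for Rgs3, 0.47 for Vav3, 0.52 for Pik3r1 and -0.39 for Cblb (adjusted p of 0.0804 to 0.168 from edgeR). Without YFP-CTRL library C, 19 of the 45 were called, 11 higher and 8 lower, in a fit that called 31.7% of all genes.

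Profiles most like those of the arterial ligand and the venous receptor were found by the root mean square difference of log2 CPM, each gene centred on its own mean over the 6 libraries, among 10218 other genes with at least 5 CPM on average. The nearest to Efnb2 were Epc2, Brms1 and Tmem115, at 0.0346, 0.0360 and 0.0374 on the log2 scale. The nearest to Ephb4 were Snn, Dck and Tm9sf1, at 0.0415, 0.0630 and 0.0706.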

How the data were processed

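RNA was measured by ribodepleted RNA-seq in 3 Meis1-OE and 3 YFP-CTRL libraries. Per gene, the authors deposited an estimated count of reads with no normalization. The build is mm10 per the labels, and the aligner, counting tool and annotation are not given in the sources used here, nor is use of strand, so reads of overlapping genes cannot be told apart. Columns were assigned to conditions by name. Counts were rounded to whole numbers, and totals ran from 34176592 to 47956569 per library. The study states that replicates were independent.

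edgeR 4.0.16 in R 4.3.3 was used with TMM normalization, filterByExpr and the quasi-likelihood test. P-values were adjusted by Benjamini-Hochberg and the threshold was 0.05. Standard errors were derived from the F statistic. The biological coefficient of variation was 0.233. CPM values are TMM-normalized. A value at or under 3 counts was treated as not detectable, and floors and intervals of counts cover counting error only. Alternatives were DESeq2 1.42.0, a robust fit, library totals or the size factors of DESeq2 for scaling, omission of the filter or a minimum of 10 counts throughout, omission of single libraries, the column letter as a block and the proliferation score as covariate. The edgeR and DESeq2 steps were tested on simulated data. Promoter windows were RefSeq, and figures used matplotlib 3.10.9.

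Named were all 10 members, the other family and pathway genes past the threshold, Ephb3 and Ephb6 after their values were seen, and for Efnb2 and Ephb4 the 3 nearest profiles. The members and gene lists were chosen with earlier results of these data known.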

Additional observations from a re-analysis of the deposited data

How the results depend on the processing

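The 2 members called in edgeR became 1 on library totals, with the column letter as a replicate block and under the proliferation covariate, and ranged from 0 to 5 when single libraries were left out. The lowest count came without Meis1-OE library B or C (3 or 4 members at an unadjusted p under 0.05) and the highest without YFP-CTRL library C. Over all genes, the fit without Meis1-OE library B called 115 higher and 16 lower of 16413 tested. That without Meis1-OE library C called 126 higher and 18 lower of 16450. The 1 call among the other family genes became 2 with DESeq2 and 0 with the replicate block and the covariate (1 at an unadjusted p under 0.05 in each), and ranged from 0 to 2 when libraries were left out. The 4 pathway calls became 1 with the size factors of DESeq2, 2 with at least 10 counts in every library, 7 with DESeq2 and 0 with the covariate (15 at an unadjusted p under 0.05), and ranged from 0 to 19 when libraries were left out. The difference in the log2 ratio of Efnb2 to Ephb4 ranged from -1.44 to -0.78 and kept its sign when single libraries were left out. The log2 fold change of Efnb1 ranged from -0.22 to 0.081 when single libraries were left out, and its sign turned on library totals (0.07), with the covariate (0.30) and without Meis1-OE library A (0.06) or YFP-CTRL library A (0.081). That of Efnb3 ranged from -0.59 to 0.63 and turned on library totals (0.11), with the replicate block (0.026), with the covariate (0.60) and without Meis1-OE library B (0.17), Meis1-OE library C (0.20) or YFP-CTRL library A (0.63). The cause was not tested. Library totals moved the median log2 fold change of all genes to 0.15, against which the values on that scale are to be read. Over all genes, 665 were called higher and 438 lower, as against 1048 and 179 on library totals, 1124 and 1115 with DESeq2 and 544 and 189 with the replicate block. Under the proliferation covariate the calls were 374 and 300, and without YFP-CTRL library C 2717 and 2498.

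Libraries that carry the same letter deviated from their condition means with correlations across genes of 0.267 (A), 0.120 (B) and 0.0697 (C). Meis1-OE libraries A and B correlated best with the control of their own letter, and Meis1-OE library C with YFP-CTRL library B (0.214). These values do not settle whether letters mark pairs, so letters were not taken as pairs. The replicate block ended the calls of Efna5 (adjusted p = 0.0506), Efna3 (0.0772), Pik3r1 (0.0567) and Cblb (0.0715), with log2 fold changes of -1.17, 1.17, 0.60 and -0.73, and lowered the standard error of Efnb3 from 0.58 to 0.29. Over the 8 tested members, Meis1, Efna3 and the 4 pathway genes, alternatives ended 51 calls, added 4 and changed 10 signs. The other 131 fold changes kept their sign and stayed as they were, called (Meis1 in every setting) or uncalled. With 3 libraries per condition, and control libraries that spread more than the Meis1-OE libraries, the differences of Efna1 and Ephb4 had 95% intervals that include 0, and that of Efnb2 did not include 0 but did not pass over all genes (adjusted p = 0.118 from edgeR).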
